A study of Mus musculus with 6 samples.

Results

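Interferon-induced genes and interferon regulatory factors (IRFs) were followed in bulk RNA-seq of inguinal white adipose tissue (IWAT), the subcutaneous fat pad of the mouse groin. Members were chosen by gene symbol and a minimum of summed counts, as the families Ifit, Ifi, Irf, Oas, Gbp, Isg, Iigp, Irgm, and Mx. The rule did not use their measured change between genotypes, although earlier results of these data were known when it was set. Of 77 matching symbols, 2 pseudogenes marked -ps were left out. Another 2 genes, Oas1d and Ifi44l, had 2 counts each over all libraries and fell under the minimum of 10. This left 73 members of 55491 genes in the authors' table, and the members just inside the minimum were Oas1h with 11 summed counts, Ifi202b with 13, and Ifitm7 with 14. At least 10 counts in every library were found for 67 members, and 65 had a mean of at least 1 CPM, the count a gene would have in a library scaled to 1000000 counts.

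The libraries came from 3 wild-type (Ebf2+/+) and 3 heterozygous knock-in (Ebf2 E165X/+) male C57BL/6J mice aged 4 weeks on regular chow, with 1 library per mouse. The knock-in allele, made with CRISPR/Cas9, carries the nonsense change p.E165X in Ebf2, a transcription factor of the early B cell factor family that acts in brown and beige fat cells and in mesenchymal development. It was present in every cell of the heterozygous mice rather than in fat alone, and they kept 1 normal allele. The comparison asked how this allele changes gene expression in IWAT shortly after weaning. Total counts per library ran from 106820505 to 135039488.

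Interferons are secreted proteins that warn cells of virus and other infection. Type I interferons signal through Ifnar1 and Ifnar2 and activate a complex that includes Stat2 and Irf9 and binds an interferon-stimulated response element (ISRE) in the promoters of their target genes. Interferon gamma signals through Ifngr1 and Ifngr2 to a gamma-activated site (GAS). IRF proteins bind related letters, and several of them also steer the development of macrophages, dendritic cells, or B cells, so the level of an IRF gene in a fat pad can reflect its cell makeup as well as interferon.

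The family resemblance of the members is visible in their promoters, and the windows below are shown as examples that hold the ISRE letters. RefSeq promoters of build GRCm38.p6, from 250 bases before to 50 bases after the start of the gene, were found for 56 of 73 members. The letters GAAANNGAAA, searched on both strands, stood in 28 of these 56 promoters and in 3.99% of 27025 promoters of all genes. Each window is printed 5′ to 3′ on the strand of the gene, with the matching letters, or their reverse complement, in capitals.
Ifit3, chr19:34583353-34583402, + strand: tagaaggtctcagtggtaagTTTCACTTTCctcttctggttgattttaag
Ifit3b, chr19:34607749-34607798, + strand: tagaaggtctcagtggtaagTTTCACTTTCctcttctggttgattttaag
Ifit1, chr19:34640765-34640814, + strand: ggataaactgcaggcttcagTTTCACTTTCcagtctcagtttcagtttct
Isg15, chr4:156200861-156200910, − strand: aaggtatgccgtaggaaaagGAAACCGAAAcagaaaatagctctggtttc
Gbp2, chr3:142620584-142620633, + strand: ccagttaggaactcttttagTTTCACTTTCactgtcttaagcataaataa
Irgm1, chr11:48871415-48871464, − strand: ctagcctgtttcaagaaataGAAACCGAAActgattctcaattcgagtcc
Ifi203, chr1:173942498-173942547, − strand: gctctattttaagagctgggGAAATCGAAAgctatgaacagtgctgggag
Ifi205, chr1:174031860-174031909, − strand: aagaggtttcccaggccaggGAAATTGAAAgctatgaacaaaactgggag

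The windows of Ifit3 and Ifit3b were the same in all 50 bases, and those of Ifi203 and Ifi205 were alike around the matching letters. The letters began 156 bases before the start of Ifit3, 188 before Ifit3b, 78 or fewer before the start in Isg15, where 3 matches overlapped, and 59 before Gbp2. By family, they stood in 5 of 5 Gbp promoters matched, 5 of 6 Ifit, 8 of 10 Ifi200, 4 of 8 Oas, 2 of 3 immunity-related GTPase, 2 of 7 Ifitm, and 1 of 8 IRF promoters, the last being Irf2. The GAS letters TTCNNNGAA, which read the same on both strands, stood in 14 of 56 member promoters (25.0%) and in 9.55% of all promoters, and 6 member promoters held both motifs. The letters TCCCNNGGGA, the core to which EBF proteins bind, stood in the promoter of 1 member, Ifitm10 (1.79%), and in 1.06% of all promoters. A match of letters is a description of these windows and not a measured binding site.

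Ebf2, the targeted gene, was first read in each mouse to check the labels. It stood at 38.3, 41.3, and 37.2 CPM in the Ebf2+/+ mice and at 22.8, 22.9, and 21.1 CPM in the E165X/+ mice. All 3 knock-in mice lay below all 3 wild-type mice. The log2 fold change was −0.81 ± 0.08 (SE, n = 3 per genotype), with an unadjusted p of 8.599e-06 and a Benjamini-Hochberg adjusted p of 0.0596 in edgeR's quasi-likelihood test over 32664 genes with at least 1 count. CPM here are relative to the library size scaled by edgeR's TMM factors, which correct for the makeup of each library.

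The tissue label was checked against adipocyte markers, and all 7, from Adipoq to Lpl, were counted in the list, which summed to at least 10794 CPM in every library. Several libraries stood apart in other markers. Skeletal muscle genes were the most abundant in the third E165X/+ library, and B and T cell genes were lowest in the first +/+ library. Their values are given beside the members that moved with them.

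No member was called between the genotypes. A call needed an adjusted p under 0.05 and a fold change above 1.5, and edgeR made 3 calls among 32664 genes (0.00918%). The lowest adjusted p of a member was 0.780, for Ifit3b. At an unadjusted p under 0.05, edgeR had 4 of 73 members. The 1 member higher in E165X/+ was Isg20l2, or 1.37% of members against 1.68% of all genes. The 3 lower members were Ifit3b, Ifit3, and Ifi27, or 4.11% of members against 3.09% of all genes. These shares lay near the background. DESeq2, the tool of the study's methods, placed 1 member, Ifit3b, under an adjusted p of 0.05 (0.0286, 0.483% of genes tested), at a fold change below the 1.5 required, and limma-voom placed none there and 3 under an unadjusted p of 0.05.

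Across the members, 44 had a log2 fold change above 0 and 29 below it, with a median of 0.036 beside 0.014 over all genes tested. Among the 65 members with a mean of at least 1 CPM the median was 0.035, beside 0.026 over 14966 genes at that level. Their median absolute log2 fold change was 0.098 and that of the genes at that level 0.11. The 95% interval of the fold change lay within 1.5-fold in either direction for 45 of the 65 members (69.2%), and for 72.7% of genes at that level. For 62 of the 65 it lay within 2-fold. For those 45 members a change of more than 1.5-fold lay outside the interval, whereas for the other 20, Irf4, Mx1, Mx2, and several Gbp, Ifit, and Ifi200 genes among them, it did not.

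**Figure D1:**
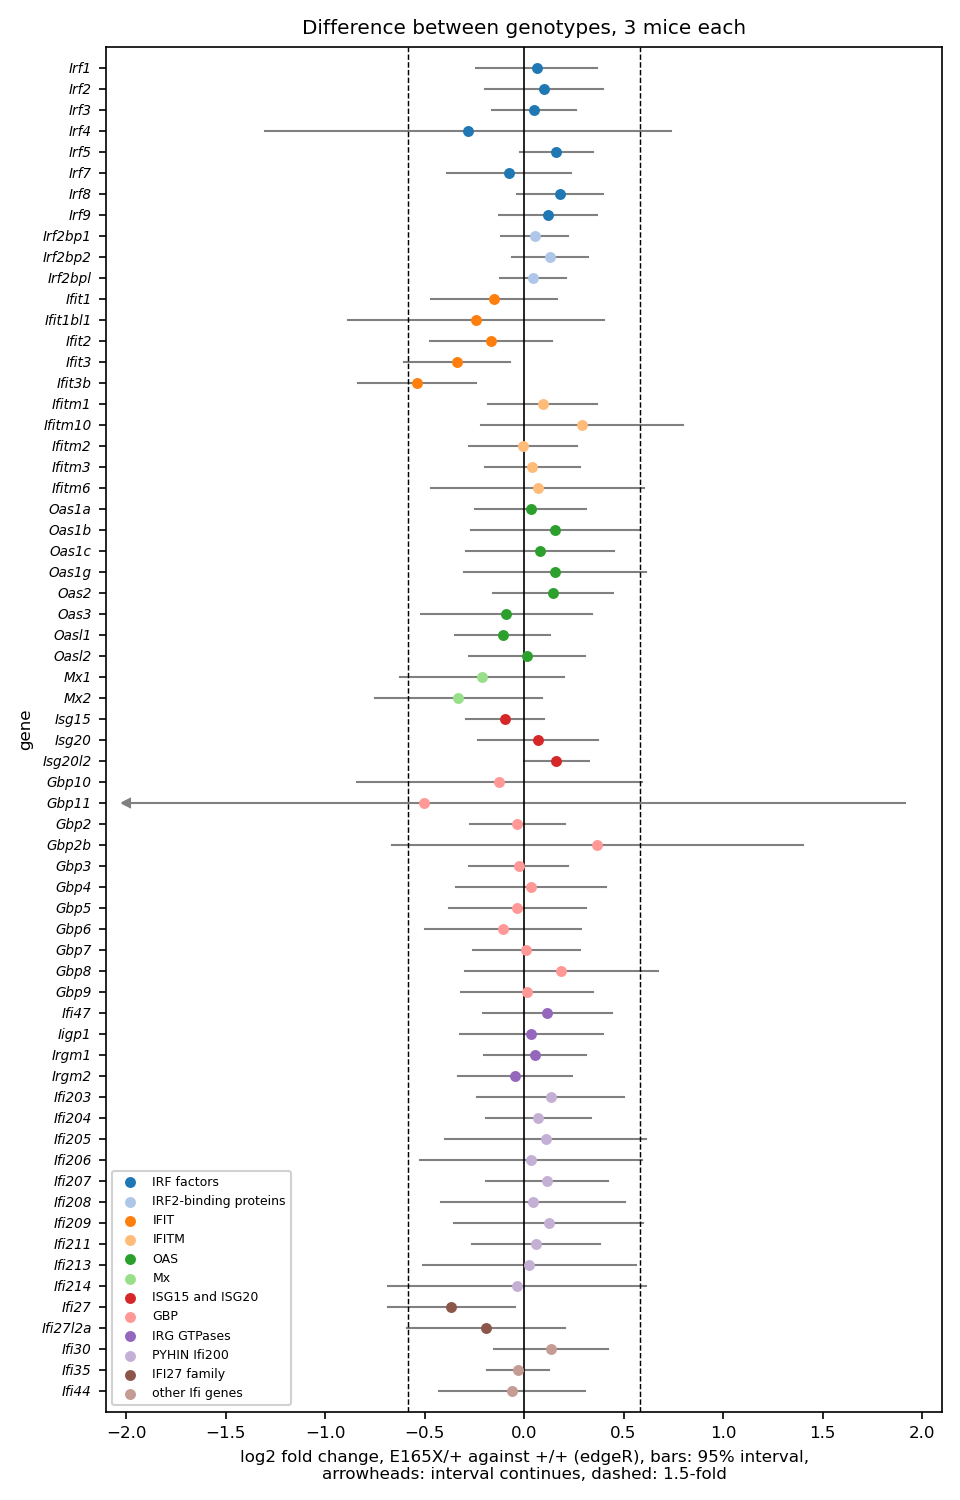
Log2 fold change of E165X/+ against +/+ mice (x axis, edgeR, n = 3 per genotype) for 64 of the 65 members with a mean of at least 1 CPM (y axis, colored by family), with 95% intervals as bars and 1.5-fold as dashed lines. The intervals of Ifit3b, Ifit3, and Ifi27 lie below 0, that of Isg20l2 lies just above it, and that of Gbp11 is the widest and runs past the left end of the axis.

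The IRF factors are the transcription factors of the system. Irf1 and Irf2 are an activator and its competitor at shared sites, Irf3 and Irf7 switch on type I interferon genes, and Irf9 is the DNA-binding partner of Stat2. None passed an unadjusted p of 0.05 in edgeR, with log2 fold changes from −0.28 for Irf4 to 0.18 for Irf8. As levels per kilobase of exon, the order of the means was Irf1 at 20.8 CPM per kb, Irf7 at 17.3, Irf4 at 16.1, Irf8 at 13.9, Irf3 at 13.4, Irf5 at 12.2, Irf9 at 11.7, and Irf2 at 7.18. From Irf1 down to Irf9 the ranges over mice of neighbors in this order overlapped, whereas Irf2 lay below Irf9 without overlap. The paper's supplement describes a 3′ tag kit and the labels another kit, and an order per length applies only if reads covered whole transcripts.

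Irf4, which acts in B cells, plasma cells, some macrophages, and adipocytes, varied most. It stood at 47.0, 56.6, and 156 CPM in +/+ mice and at 76.0, 52.5, and 85.3 CPM in E165X/+ mice. The third wild-type mouse stood far above the other 5, the whole range was 3.33-fold, and the knock-in values lay between the wild-type extremes. Its log2 fold change was −0.28 ± 0.44 (SE), with an adjusted p of 0.875 in edgeR, and without the third wild-type mouse it was 0.44.

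Irf8 and Irf5, factors of myeloid cells and B cells, had the smallest unadjusted p values of the IRF factors. Irf8 stood at 82.4, 91.2, and 102 CPM in +/+ mice and at 102, 103, and 107.2 CPM in E165X/+ mice, a log2 fold change of 0.18 ± 0.09 (SE; unadjusted p = 0.0869 and adjusted p = 0.783, edgeR). Irf5 stood at 31.6, 32.5, and 36.4 CPM and at 35.9, 38.1, and 38.5 CPM, a log2 fold change of 0.16 ± 0.08 (SE; unadjusted p = 0.0768 and adjusted p = 0.783, edgeR). In both genes 1 wild-type mouse reached into the range of the knock-in mice. Without the first wild-type mouse, the lowest in both, the log2 fold changes were 0.09 for Irf8 and 0.11 for Irf5. The summed B cell markers, a list of 7 genes all counted, with Ms4a1 the most abundant, were 404, 637, and 643 CPM in +/+ mice and 665, 757, and 689 CPM in E165X/+ mice. The summed conventional dendritic cell markers, 5 genes all counted and led by Zbtb46, were 65.6, 76.6, and 83.2 CPM in +/+ mice and 83.0, 84.5, and 73.7 CPM in E165X/+ mice. They too were lowest in the first wild-type library. The summed macrophage and monocyte markers went the other way and were highest there, at 767 CPM beside 530 to 718 CPM in the other libraries. The part of these cell types in the levels of Irf8 and Irf5 was not tested. In bulk tissue fewer cells of a type and less RNA per cell cannot be told apart.

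Irf1, Irf2, Irf3, Irf7, and Irf9 overlapped between the genotypes. Irf1 ran from 67.8 to 92.6 CPM in +/+ mice and from 77.8 to 95.01 CPM in E165X/+ mice. Irf7 ran from 54.3 to 78.5 CPM and from 59.0 to 67.6 CPM. Their log2 fold changes were 0.06 ± 0.13 and −0.08 ± 0.13 (SE). Irf9 stood at 50.7 CPM in the first +/+ mouse and between 64.8 and 66.9 CPM in the other 5 mice. The IRF2-binding proteins Irf2bp1, Irf2bp2, and Irf2bpl, corepressors that share the Irf symbol without being IRF factors, also overlapped, and Irf2bpl ran from 40.5 to 45.6 CPM over all 6 mice.

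**Figure D2:**
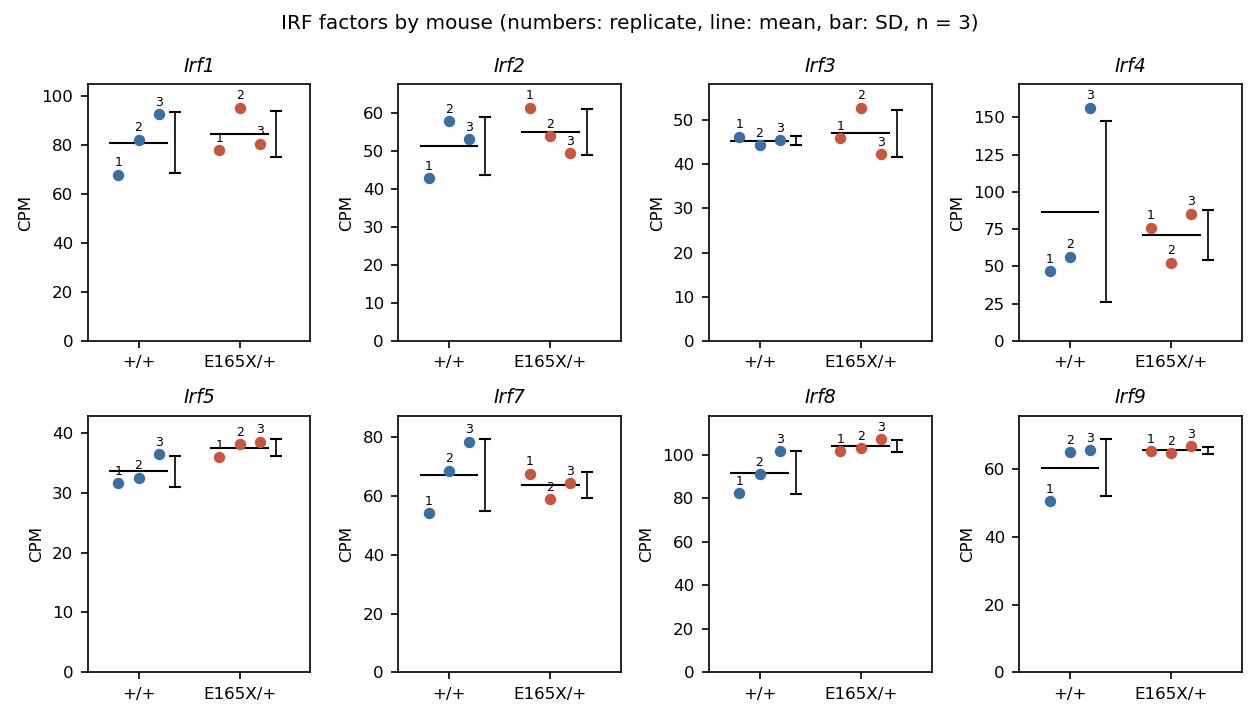
CPM of 8 IRF factors (y axes) in each Ebf2+/+ and E165X/+ mouse (x axes; points numbered by replicate, lines at the mean, bars 1 SD, n = 3). The genotypes overlap in all 8 panels, in Irf5 and Irf8 by 1 wild-type mouse only, and the third wild-type mouse has 156 CPM of Irf4.

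The Ifit genes encode proteins that bind foreign RNA and block its translation, and they lie in 1 cluster of 99.3 kb on chromosome 19 (chr19:34550694-34650009, GRCm38). All 5 with a mean of at least 1 CPM had a negative log2 fold change, with a median of −0.24. Of these, 2 passed an unadjusted p of 0.05 in edgeR and none passed the adjustment. The remaining Ifit gene, Ifit1bl2, had a mean just below that level, 0.93 CPM. Its log2 fold change was positive, at 0.07 ± 0.20 (SE). Like the 5 Ifit genes, all 7 adipocyte and all 5 endothelial markers had a negative log2 fold change, with medians of −0.28 and −0.22. All 7 B cell markers had a positive one. The part of these cell types in the Ifit levels was not tested. Ifit3b (chr19:34607970-34613401) stood at 13.1, 17.2, and 14.5 CPM in +/+ mice and at 10.9, 9.57, and 10.4 CPM in E165X/+ mice. The 3 knock-in values lay below the 3 wild-type values. Its log2 fold change was −0.54 ± 0.13 (SE), a fall of 31.2%, with an unadjusted p of 0.00332 and an adjusted p of 0.780 in edgeR.

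Ifit3 (chr19:34583531-34588731), the neighbor with the same promoter window, stood at 44.4, 56.4, and 51.6 CPM in +/+ mice and at 44.2, 35.6, and 41.0 CPM in E165X/+ mice. The groups did not overlap, although the nearest values, 44.4 and 44.2 CPM, almost touched. Its log2 fold change was −0.34 ± 0.11 (SE), with an unadjusted p of 0.0198 and an adjusted p of 0.783 in edgeR. The longest transcripts of Ifit3 and Ifit3b were 97.8% identical over 1700 bases, so that the division of reads between them is uncertain. Their summed level did not depend on this division and was 57.5, 73.6, and 66.1 CPM in +/+ mice and 55.1, 45.1, and 51.4 CPM in E165X/+ mice, or 65.8 ± 8.05 and 50.5 ± 5.03 CPM (SD, n = 3). The 2 genes therefore do not count as 2 independent observations.

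The other Ifit genes overlapped between the genotypes. Ifit1 stood at 21.1, 30.2, and 24.0 CPM in +/+ mice and at 22.7, 21.2, and 24.0 CPM in E165X/+ mice. Ifit2 stood at 39.3, 51.8, and 50.7 CPM and at 46.9, 36.6, and 42.8 CPM. In both the first wild-type mouse was among the lower values, and the log2 fold changes were −0.15 ± 0.14 and −0.17 ± 0.13 (SE). The Mx genes encode dynamin-like GTPases that trap virus particles, and the Mx1 allele of C57BL/6 mice is known to be defective. Mx1 stood at 12.7, 16.4, and 20.7 CPM in +/+ mice and at 13.3, 14.1, and 15.7 CPM in E165X/+ mice. Mx2 stood at 4.15, 6.15, and 5.78 CPM and at 4.47, 4.15, and 4.18 CPM. Here too the first wild-type mouse lay at or below the knock-in mice, and the log2 fold changes were −0.21 ± 0.18 and −0.33 ± 0.18 (SE; adjusted p = 0.783 for both, edgeR).

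Ifi27, a small mitochondrial and nuclear envelope protein, was among the most abundant members, at 201 CPM per kb. It stood at 350, 340, and 308 CPM in +/+ mice and at 271, 292, and 211 CPM in E165X/+ mice. All 3 knock-in mice lay below the wild-type mice, with the third the lowest. The log2 fold change was −0.37 ± 0.14 (SE), a fall of 22.4%, with an unadjusted p of 0.0299 and an adjusted p of 0.783 in edgeR. The third E165X/+ library also had the lowest summed adipocyte markers, 10794 CPM beside 14666 to 18682 CPM in the others, and the lowest endothelial markers, 758 CPM beside 947 to 1048 CPM. Its skeletal muscle markers were the highest, 38143 CPM beside 648 to 6688 CPM. Without this library the log2 fold change of Ifi27 was −0.24, with an unadjusted p of 0.0573 in edgeR, and the part of these differences in the Ifi27 level was not tested. Ifi27l2a, the family member with the highest level per length of all members at 548 CPM per kb, stood at 234, 332, and 245 CPM in +/+ mice and at 206, 278, and 226 CPM in E165X/+ mice, with overlap.

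Isg15, a ubiquitin-like protein attached to other proteins after interferon, was steady. It stood at 16.1, 16.4, and 17.6 CPM in +/+ mice and at 15.9, 15.3, and 15.6 CPM in E165X/+ mice. The groups did not overlap, but the nearest values differed by little, and the log2 fold change was −0.10 ± 0.08 (SE; unadjusted p = 0.291, edgeR). Isg20l2, a nuclear exonuclease of ribosome assembly that carries the Isg symbol through its likeness to Isg20, stood at 26.5, 28.8, and 28.8 CPM and at 31.2, 32.0, and 30.9 CPM. It was the only member higher without overlap, at a log2 fold change of 0.16 ± 0.07 (SE; unadjusted p = 0.0492 and adjusted p = 0.783, edgeR). The unadjusted p was 0.0828 in DESeq2 and 0.0719 in limma-voom, and with a mouse left out it was under 0.05 in 1 of 6 edgeR fits. Of 67 members with at least 10 counts in every library, 1 lay higher without overlap, or 1.49% beside 6.66% of all genes so measured. Another 4, Ifit3b, Ifit3, Ifi27, and Isg15, lay lower without overlap, or 5.97% beside 6.78% of all genes.

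**Figure D3:**
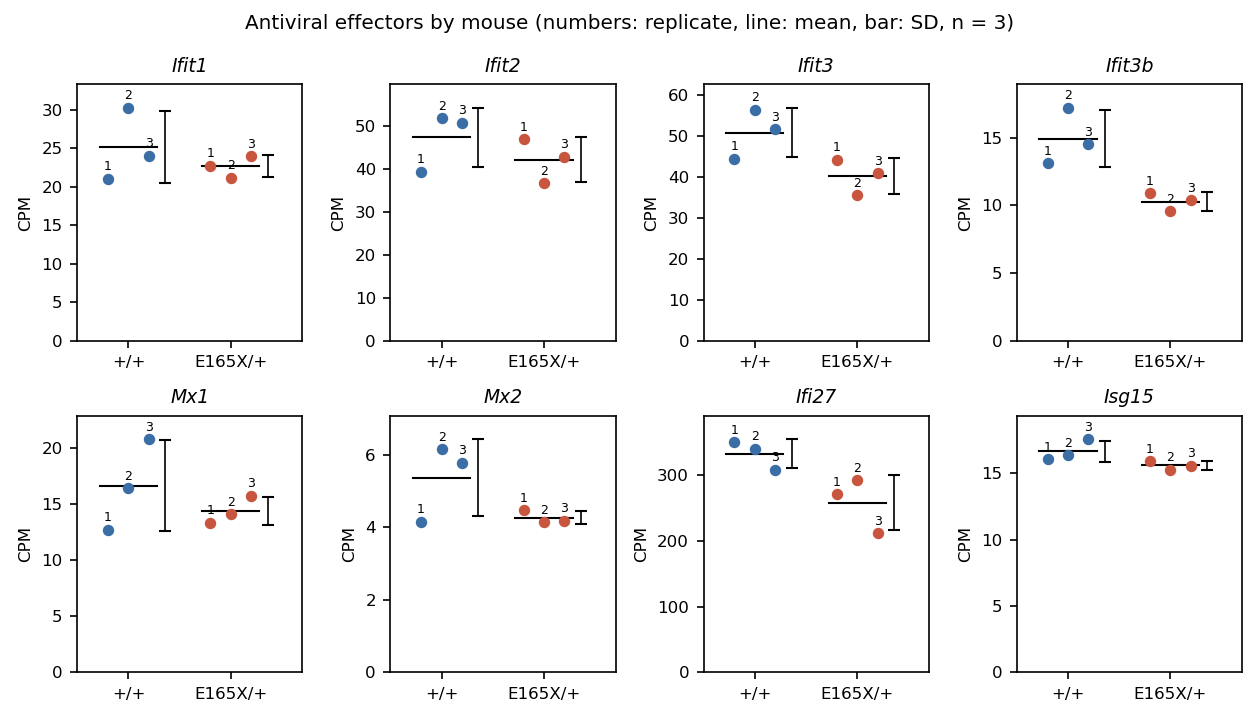
CPM of 8 antiviral effector genes (y axes) in each Ebf2+/+ and E165X/+ mouse (x axes; points numbered by replicate, lines at the mean, bars 1 SD, n = 3). Ifit3, Ifit3b, Ifi27, and Isg15 show no overlap, and in Ifit1, Ifit2, Mx1, and Mx2 the first wild-type mouse falls within or beside the knock-in range.

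The Oas genes encode enzymes that sense double-stranded RNA and activate RNase L, and the Ifitm genes encode membrane proteins that hinder virus entry. None of the 11 Oas and 7 Ifitm genes passed an unadjusted p of 0.05 in edgeR. Per length Oas1a, at 8.05 CPM per kb, and Oasl2, at 7.96 CPM per kb, lay close together. Oasl2 stood at 45.3, 53.6, and 52.7 CPM in +/+ mice and at 59.2, 43.2, and 50.6 CPM in E165X/+ mice, and Oas2 ran from 23.7 to 32.3 CPM over both genotypes. Among Oas genes with at least 1 CPM the log2 fold changes lay between −0.11 and 0.16. Oas1f was nearly absent, with a mean of 0.132 CPM, and its values ran from 0.00801 to 0.491 CPM, so that its log2 fold change of −2.39 ± 1.13 (SE; adjusted p = 0.783, edgeR) rests on few counts. Ifitm3, at 215 CPM per kb, followed Ifi27l2a in level, with Ifi27 between it and Ifitm2, at 157 CPM per kb. Ifitm3 stood at 159, 127, and 146 CPM in +/+ mice and at 149, 141, and 155 CPM in E165X/+ mice. The log2 fold changes of Ifitm3 and Ifitm2 were 0.04 ± 0.10 and −0.01 ± 0.12 (SE). Ifitm10, a member with no known response to interferon, was the most positive Ifitm gene with a mean of at least 1 CPM, at 0.29 ± 0.22 (SE), with 1.06 to 1.598 CPM in +/+ mice and 1.51 to 1.62 CPM in E165X/+ mice.

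Ifi30, a lysosomal thiol reductase of antigen processing, stood at 54.7, 54.2, and 72.6 CPM in +/+ mice and at 66.9, 62.6, and 69.9 CPM in E165X/+ mice, with overlap. Ifi35, which binds leucine zipper proteins, ran from 30.6 to 33.2 CPM over all 6 mice and was the steadiest gene of its group.

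The Gbp genes and the immunity-related GTPases (Iigp1, Irgm1, Irgm2, and Ifi47) attack the vacuoles of intracellular parasites and are classic targets of interferon gamma. The 11 Gbp genes lie in 2 clusters, on chromosome 3 and chromosome 5. None of these 15 genes passed an unadjusted p of 0.05 in edgeR, and the medians of the log2 fold changes were −0.03 for the Gbp genes and 0.05 for the others. Per length Gbp2 had the highest level of the Gbp genes, at 28.1 CPM per kb beside 20.8 CPM per kb for Gbp9. Gbp9 stood at 83.9, 122, and 116 CPM in +/+ mice and at 116, 108, and 101 CPM in E165X/+ mice. Irgm2 stood at 69.5, 89.4, and 73.4 CPM and at 85.4, 70.1, and 69.9 CPM. In both the range over wild-type mice enclosed the knock-in values. Iigp1 ran from 61.3 to 79.5 CPM in +/+ mice and from 56.0 to 79.6 CPM in E165X/+ mice.

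Gbp11 was the least even member above 1 CPM. It stood at 14.1, 40.8, and 8.75 CPM in +/+ mice and at 38.9, 3.46, and 2.62 CPM in E165X/+ mice, a 15.6-fold range. Of the knock-in mice, 2 lay below every wild-type mouse, and the first lay near the highest wild-type value. Its log2 fold change of −0.50 ± 1.04 (SE; adjusted p = 0.913, edgeR) had the widest interval of these members. Without the first E165X/+ mouse it was −2.80, with an unadjusted p of 0.0049 and an adjusted p of 0.811 in edgeR. That mouse was singled out for its high value, and leaving it out lowers the knock-in mean by construction. The refit is therefore a description and not support for a difference between the genotypes. Gbp10, Gbp4, Gbp8, and Gbp9 were each at least 90% identical to Gbp11 over 500 bases or more, and the models of Gbp4, Gbp8, and Gbp9 overlap, so that reads may be divided differently among them in each library. Their part in the Gbp11 values was not tested. Such near-identical pairs numbered 16 and involved 18 of 73 members, among them Oas1a with Oas1g, Mx1 with Mx2, and Ifi204 with Ifi211. Gbp2b stood at 0.616 CPM in the first +/+ mouse and between 1.64 and 2.59 CPM in the other 5 mice.

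The Ifi200 genes encode PYHIN proteins, relatives of the DNA sensor Aim2, and 11 of them form a cluster of 563 kb on chromosome 1 (chr1:173468485-174031810, GRCm38). Of the 10 with at least 1 CPM, 9 had a positive log2 fold change, from 0.03 to 0.13, Ifi214 had −0.04, and none passed an unadjusted p of 0.05 in edgeR. Within the cluster the genes fell into 2 patterns across mice, grouped after their values were seen. Ifi203, Ifi206, Ifi208, Ifi209, Ifi213, and Ifi214 were lowest in the first wild-type mouse. Ifi203 stood there at 127 CPM and between 176 and 195 CPM in the other 5 mice, and Ifi214 stood there at 4.57 CPM and between 7.67 and 10.1 CPM in the others. Ifi204, Ifi205, Ifi207, and Ifi211 were instead lowest in the second wild-type mouse. Of the 16 near-identical pairs counted above, 5 joined 6 of these genes, and in all 5 both genes were lowest in the same mouse, so that reads shared within a pair may tie their values together and the genes do not count as independent observations. Without the first wild-type mouse, 6 of the 10 genes had a negative log2 fold change.

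Ifi205 showed the second pattern most clearly. It stood at 72.8, 40.6, and 68.5 CPM in +/+ mice and at 55.1, 67.1, and 73.9 CPM in E165X/+ mice. The B cell markers given above and the summed T cell markers, 254, 333, and 338 CPM in +/+ mice and 342, 376, and 326 CPM in E165X/+ mice, were lowest in the first wild-type library. The summed macrophage and monocyte markers were 767, 530, and 683 CPM in +/+ mice and 718, 669, and 683 CPM in E165X/+ mice. This list, 7 genes with Mrc1 the most abundant, was lowest in the second wild-type library. The stromal fibroblast and progenitor markers, led by Col1a1, were lowest there too, at 4989 CPM beside 6310 to 6821 CPM. All genes of these 4 marker lists were counted. Their part in the 2 patterns was not tested.

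**Figure D4:**
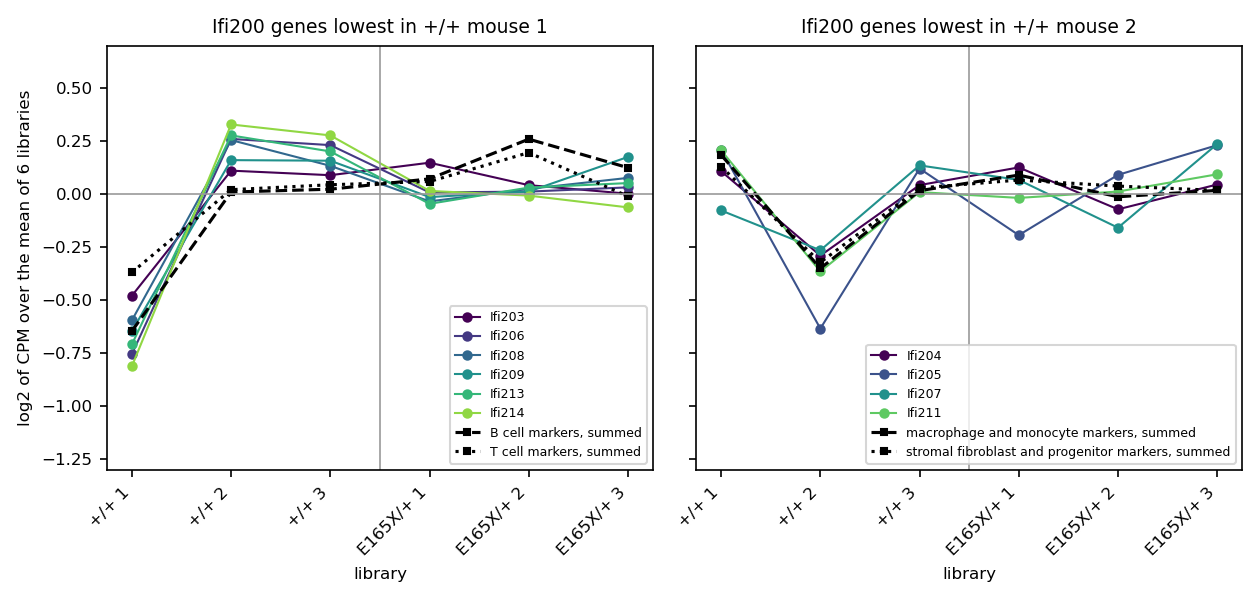
Log2 of CPM relative to the mean over the 6 libraries (y axis) by library (x axis) for 6 Ifi200 genes lowest in the first wild-type mouse (left) and 4 lowest in the second (right), with summed marker lists in black. The B and T cell markers dip in the first wild-type library, as do the genes on the left, and the macrophage and stromal markers dip in the second, as do the genes on the right.

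The first wild-type mouse stood apart in several families. Of the 65 members with at least 1 CPM, 34 (52.3%) had their lowest value in its library, whereas it held the lowest value of 24.6% of all genes at that level. They included 7 IRF factors, 7 of 11 Gbp genes, 6 of 10 Ifi200 genes, and 3 of 4 immunity-related GTPases. In other families they were 2 of 5 Ifit, 2 of 5 Ifitm, and 3 of 8 Oas genes. None were of the Ifi27 family or the other Ifi genes. The second wild-type mouse had the highest value for 24 of the 65 members, or 36.9% beside 9.80% of all genes at that level. Member levels were also set on the log2 scale relative to each gene's mean over the wild-type mice, the first included. The median over members was then −0.18 in the first wild-type library, 0.09 in the second, and 0.11 in the third. It was 0.10, 0.04, and 0.01 in the knock-in libraries. For the Ifitm genes alone the median was 0.15 in the first wild-type library.

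**Figure D5:**
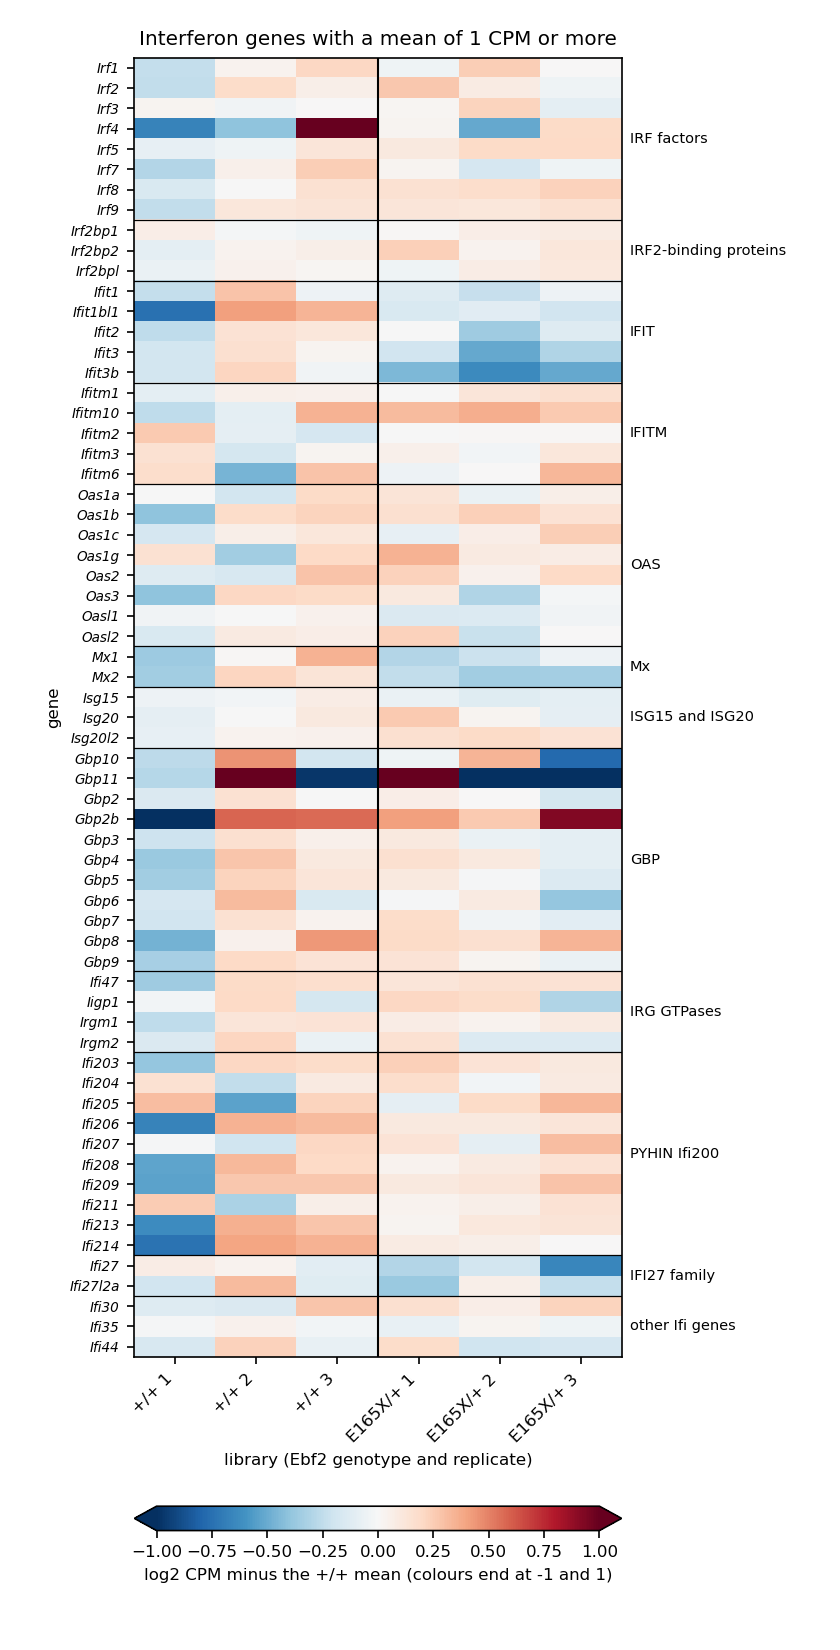
Log2 CPM of 64 of the 65 members with at least 1 CPM (rows, ordered by family) in each library (columns), relative to the mean of the wild-type mice. Blue cells gather in the first wild-type column and in the knock-in columns of Ifit3 and Ifit3b, and the darkest cells belong to Gbp11, Gbp2b, and Irf4.

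This mouse was singled out for its low member values, and leaving it out raises the wild-type means of those members by construction. The values without it are therefore given as a description and not as support for a difference between the genotypes. Without this mouse the median log2 fold change of the members was −0.05. The edgeR fit of the other 5 libraries then had 9 members at an unadjusted p under 0.05, all lower in E165X/+, beside 2.24% of all genes in that direction. They were Ifit1bl1, Ifit3b, Ifit3, Ifit2, Mx1, Mx2, Ifi206, Ifi213, and Ifi214. The log2 fold change of Ifit1bl1 went from −0.24 ± 0.28 with the mouse to −0.54 ± 0.10 (SE) without it. No member passed the adjustment, and the lowest adjusted p was 0.908. Without overlap, 19 of 67 members then lay lower, beside 9.49% of all genes, and 3 lay higher, beside 11.4% of all genes.

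The other parts of the pathway were read from lists chosen from its known members. Of 20 interferon genes, 15 had no count in any library, among them both interferon lambda genes and the Ifna genes of the list except Ifnab, which had 2, 0, and 1 counts in +/+ libraries and 0, 1, and 0 counts in E165X/+ libraries. Ifnb1 had a single count in 1 E165X/+ library. Ifng, the gene of interferon gamma, had 25, 40, and 37 counts in +/+ libraries and 33, 36, and 28 counts in E165X/+ libraries, or 0.208 to 0.380 CPM over both genotypes. Transcripts of the ligands themselves were thus at or near 0 at these depths, and for most of them no difference was detectable.

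Most receptors and signal carriers were well expressed. Ifnar1 stood at 95.9, 96.8, and 95.3 CPM in +/+ mice and at 94.3, 103, and 86.3 CPM in E165X/+ mice. Its log2 fold change was −0.02 ± 0.08 (SE), and the interval lay within 1.5-fold. Ifngr1 had a log2 fold change of 0.03 ± 0.10 and Stat2 one of 0.03 ± 0.08 (SE). No gene of the receptor and JAK-STAT list passed an unadjusted p of 0.05 in edgeR. Among the 11 that no library counted under 10 times, 2 lay higher without overlap, or 18.2% beside the 6.66% of all genes, and 1 lay lower, or 9.09% beside 6.78%. Over all the pathway lists, 6 of 86 such genes (6.98%) lay higher without overlap and 2 (2.33%) lay lower. Ifngr2, the second chain of the interferon gamma receptor, stood at 38.4, 39.3, and 42.1 CPM in +/+ mice and at 42.6, 43.9, and 64.8 CPM in E165X/+ mice, a log2 fold change of 0.34 ± 0.16 (SE; unadjusted p = 0.0685 and adjusted p = 0.783, edgeR). The third knock-in mouse was far above the others, and its library is the one with the high skeletal muscle and low adipocyte markers given above. Without it the log2 fold change of Ifngr2 was 0.12 (unadjusted p = 0.148, edgeR), and the part of those tissues was not tested. Jak1, a kinase bound to these receptors, stood at 339.9, 359.9, and 344.2 CPM and at 370.0, 402.3, and 381.4 CPM, a log2 fold change of 0.14 ± 0.09 (SE; unadjusted p = 0.166, edgeR). Ifnar2, the second chain of the type I receptor, stood at 80.2, 84.9, and 83.9 CPM and at 78.8, 79.3, and 69.7 CPM, a log2 fold change of −0.13 ± 0.08 (SE; unadjusted p = 0.135, edgeR). Its lowest value was in that same library, and without it the log2 fold change was −0.07. These 3 genes were named after their values were seen.

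Among 16 nucleic acid sensors and adaptors, Ikbke, a kinase that activates Irf3 and Irf7, had an unadjusted p under 0.05 in edgeR. It stood at 32.9, 36.0, and 35.6 CPM in +/+ mice and at 40.4, 45.8, and 36.7 CPM in E165X/+ mice, a log2 fold change of 0.23 ± 0.09 (SE; adjusted p = 0.783, edgeR). Its unadjusted p was 0.0568 in DESeq2 and 0.0598 in limma-voom, and without the second E165X/+ mouse the log2 fold change was 0.15. Usp18, which removes Isg15 and damps signaling through the type I receptor, stood at 14.4, 20.8, and 20.1 CPM in +/+ mice and at 16.4, 15.4, and 17.8 CPM in E165X/+ mice, with overlap, and none of the 10 genes of feedback and nucleic acid clearance passed an unadjusted p of 0.05.

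Of 48 further interferon-induced genes, 28 had a positive and 20 a negative log2 fold change, with a median of 0.02. Psme1, a subunit of the proteasome activator PA28, was the only one at an unadjusted p under 0.05 in edgeR. It stood at 105, 128, and 117 CPM in +/+ mice and at 94.6, 99.3, and 93.5 CPM in E165X/+ mice, without overlap, a log2 fold change of −0.28 ± 0.09 (SE; adjusted p = 0.783, edgeR). Over the 90 genes of these lists with a count, edgeR had 2 at an unadjusted p under 0.05, DESeq2 had 2, and limma-voom had 1, or 2.22%, 2.22%, and 1.11% beside 4.77%, 4.85%, and 5.38% of all genes, and none passed the adjustment in any of the 3.

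Members with and without the ISRE letters were finally set side by side. Among members with a matched promoter and at least 1 CPM, the 27 with the letters had a median log2 fold change of 0.03 and 15 positive values, and the 23 without them had a median of 0.07 and 17 positive values. Among the windows printed at the outset, those of Ifit3, Ifit3b, and Isg15 belong to genes lower without overlap, and those of Ifit1, Gbp2, Irgm1, Ifi203, and Ifi205 to genes whose genotypes overlapped.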

How the data were processed

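The authors deposited 1 table of expected counts, RSEM's estimated number of fragments per gene, not scaled for library size. The submitters' processing notes name cutadapt 4.8, FastQC 0.11.8, STAR 2.7.8a, RSEM 1.3.3, MultiQC 1.20, and GRCm38, whereas the paper's supplement names Ensembl 109. That supplement describes QuantSeq 3′ libraries and the labels an NEB kit. All 332946 values were whole, so rounding changed none.

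Here edgeR 4.0.16 (R 4.3.3) was run with TMM factors from 0.949 to 1.06, on the 32664 genes that had a count in some library, with Benjamini-Hochberg adjustment over all of them. The model held genotype alone. Logarithms used a prior count of 2. Alternatives were DESeq2 1.42.0, limma 3.58.1 (voom), DESeq2's size factors, filters on low counts, the replicate block, and each mouse left out. In simulated counts edgeR recovered 186 of 200 genes changed by a log2 fold change of 2 and called 42 of 31454 unchanged genes. Its calls there were thus 186 true and 42 false ones. Members with a mean of at least 1 CPM had log2 fold changes from −0.54 to 0.37, and changes that small were not simulated. The simulation therefore cannot say how often changes of the members' size would be found.

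Members and lists were chosen with earlier results of these data known. Named were the IRF factors, Ebf2, the 2 most abundant members of each family, the 12 members with the smallest p values, the 3 most positive and 3 most negative above 1 CPM, and, of each pathway list, genes with p under 0.05 and a few fixed signaling genes, except that some genes are not reported here. Others, among them Ifit1, Ifi205, Ifi214, Ifit1bl1, Ifit1bl2, Ifi204, Gbp10, Ifnab, Ifngr2, Jak1, and Ifnar2, were named after their values were seen. Lengths and coordinates are from GENCODE M21 (GRCm38), promoters from RefSeq (GRCm38.p6), and likeness of transcripts from blastn 2.17.0. Libraries are 1 per mouse, litters are not given, and precision was limited by 3 mice per genotype and, for rarely counted genes such as the 6 of 73 members with under 10 counts in a library, also by counting error.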

Additional observations from a re-analysis of the deposited data

How the results depend on the processing

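No interferon gene was called under any alternative with the 1.5-fold threshold, and DESeq2 without that threshold, added after the data were seen, placed 1 there, Ifit3b. Over all genes the calls rose from 3 to 92 with DESeq2 and to 157 without its fold threshold, and ran from 1 to 11 with a mouse left out. Members at an unadjusted p under 0.05, 4 in all, ran from 2 to 9 of 73 with a mouse left out, or 2.74% to 12.3% beside 3.27% to 5.45% of all genes, with 7 (9.59% beside 5.40%) without the third +/+ mouse. Members without overlap, 5 in all, ran from 5 to 22 of 67, or 7.46% to 32.8% beside 20.9% to 27.3% of all genes, and the 13 without the first E165X/+ mouse were 19.4% beside 23.6%. The cause of these differences was not tested, beyond the smaller groups. The log2 fold change of Ebf2 was −0.82 in DESeq2, where it passed the threshold, and ran from −0.86 to −0.77 with a mouse left out, passing only without the third E165X/+ mouse. The median log2 fold change of members ran from −0.05 to 0.06 with a mouse left out.

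The labels do not say that the same replicate numbers in the 2 genotypes pair the mice. Over 18905 genes the deviations of same-numbered mice correlated at 0.15, −0.28, and −0.16. With litters not given, these values cannot settle whether such mice shared a litter or handling. With the replicate block, edgeR had 3 members at an unadjusted p under 0.05 and a median log2 fold change of 0.05, and called 2 genes over all. The 5 Ifit genes above 1 CPM kept a negative sign under all alternatives run, as did Mx1, Mx2, Ifi27, and Ifi27l2a, but some came close to 0 with a mouse left out. The values nearest to 0 were −0.0048 for Ifit1, −0.060 for Ifit1bl1, and −0.027 for Ifi27l2a without the second +/+ mouse, −0.042 for Mx1 without the third +/+ mouse, and −0.076 for Ifit2 without the second E165X/+ mouse. Of the 4 members at an unadjusted p under 0.05, Ifit3b kept it in 6 of 6 such fits, Ifit3 in 4, Ifi27 in 3, and Isg20l2 in 1, and 6 of 10 Ifi200 genes were negative without the first +/+ mouse.

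For 44 named genes, 485 of 524 comparisons with an alternative kept the sign and the side of the threshold, and 38 changed sign, 33 of them with a mouse left out. With at least 10 counts in every library, Gbp7 (−0.0091), Gbp9 (−0.0075), and Oasl2 (−0.0075) turned negative. Ifitm2 turned positive in limma-voom (0.0048) and with the replicate block (0.0054). With a mouse left out, log2 fold changes that changed sign ran as follows: Gbp11 from −2.80 to 0.38, Gbp2b from −0.029 to 0.60, Gbp7 from −0.092 to 0.080, Gbp8 from −0.029 to 0.40, Gbp9 from −0.15 to 0.10, Ifi203 from −0.049 to 0.22, Ifi209 from −0.11 to 0.24, Ifitm2 from −0.11 to 0.12, Ifitm3 from −0.055 to 0.11, Ifnar1 from −0.088 to 0.042, Ifng from −0.38 to 0.047, Ifngr1 from −0.019 to 0.11, and Iigp1 from −0.071 to 0.18. The IRF factors among them were Irf1 from −0.064 to 0.15, Irf2 from −0.030 to 0.18, Irf3 from −0.040 to 0.12, Irf4 from −0.59 to 0.44, Irf7 from −0.22 to 0.029, and Irf9 from −0.0076 to 0.16. The others were Irf2bpl from −0.0017 to 0.091, Irgm2 from −0.15 to 0.061, Oasl2 from −0.11 to 0.12, and Stat2 from −0.049 to 0.062.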
